A study of Mus musculus with 15 samples.

Results

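Diet-induced obesity was examined in 10 of the 15 libraries of the series, the 5 titled High Fat Diet + Placebo and the 5 titled Low Fat Diet, chosen by those titles alone. Each library holds RNA from the peri-prostatic fat, the adipose depot around the prostate, of 1 male C57BL/6J mouse at 26 weeks of age, so n = 5 mice a group and the spread within a group is that between mice. LFD mice received food with 10 kcal% fat and no implant, whereas HFD placebo mice received 60 kcal% fat and, after 12 weeks of feeding, a subcutaneous pellet without hormone that they carried for 8 weeks. Diet and pellet placement therefore cannot be told apart here. No engineered allele is named for either group. The 5 remaining mice were fed 60 kcal% fat with a pellet of 0.25 mg estradiol. They entered the scaling, the choice of tested genes and the estimate of the spread, but not the comparison itself. Levels are FPKM, fragment numbers adjusted for transcript length and library size, divided by 1 factor per library and called scaled FPKM here. Fold changes were taken after adding 1 to each scaled FPKM and converting to log2, so those of low genes come out too small.

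When energy intake exceeds need, white adipocytes store the excess as triglyceride and enlarge, and the depot's vessels, matrix and resident immune cells remodel around them. Macrophages gather at failing adipocytes, take up the released lipid and digest it in lysosomes, while fat in the diet lowers the adipocyte's own synthesis of fatty acids. Large adipocytes also secrete a different set of hormones and respond less to insulin.

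Sums of FPKM ran from 34449 to 38755 in LFD and from 34544 to 105910 in HFD placebo, and the scaling factors from 0.481 to 0.772 and from 0.656 to 3.23. For a transcript of 2 kb, 1 scaled FPKM amounted to an estimated 20.4 to 40.1 fragments in LFD and 34.9 to 223 in HFD placebo. All LFD libraries and placebo 1, 2 and 3 lay on sequencing lane 5, and placebo 4 and 5 on lane 6. On the first principal component of the 10 libraries, which carried 65.4% of the variance, LFD ran from -26.7 to -13.7 and HFD placebo from 6.80 to 23.6, with placebo 4 nearest to LFD.

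A few genes stood apart in single libraries. Among genes above 2 in a library and more than 5 times as high there as in any other of the 10, small RNAs and predicted genes left out, 7 marked LFD 5, 4 marked LFD 4 and 7 marked placebo 3, and none marked another library. Those of LFD 5 included genes of prostate and other secretory epithelium. Sbp, the spermine-binding protein secreted by the ventral prostate, was at 576 there and at 0.152 or below in the other 9 libraries. Spink3, a secreted protease inhibitor, was at 125 in LFD 5 and at 0.187 or below elsewhere, and the epithelial adhesion gene Epcam was at 0.549 against 0.0194 or below. The probasin gene Pbsn was at 0 in 9 libraries, LFD 5 included. LFD 4 carried skeletal muscle transcripts, with the muscle creatine kinase Ckm at 4.25 and the fast myosin Myh4 at 4.83, and LFD 3 held less of both, at 0.825 and 1.1. The muscle list summed to 39.1 in LFD 4, 11.6 in LFD 3 and at most 5.24 in the other 8 libraries. Placebo 3 was the high library for the acute-phase gene Saa3, at 106, for the B cell chemokine Cxcl13, at 9.46, and for the scavenger receptor Marco, at 4.28. Leaving out LFD 5, LFD 4 or placebo 3 gave 2270, 2273 and 2154 called genes in place of 2431. Every call on a gene named below held without LFD 5 except that on Fabp4. Without LFD 4 the calls on Fabp4 and Mgl2 were lost, and without placebo 3 those on Fabp4, Mgl2 and C7.

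**Figure D1:**
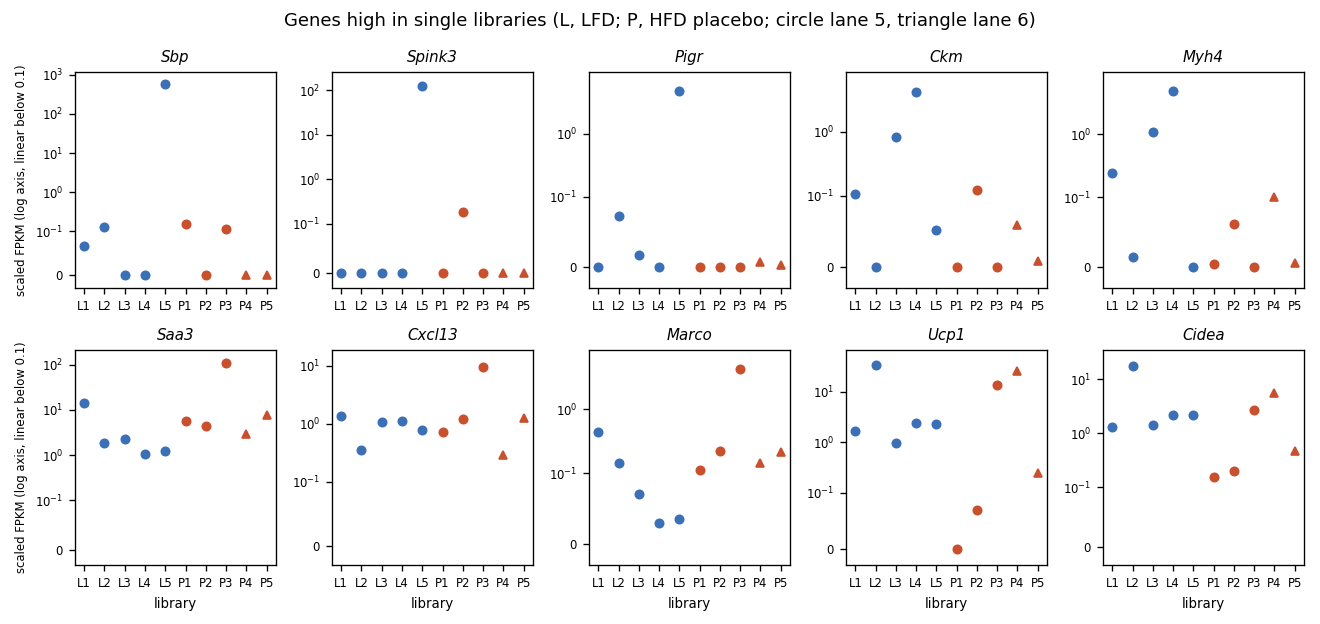
Scaled FPKM of 10 genes in each LFD (L) and HFD placebo (P) library, on a log axis that is linear below 0.1, with circles for lane 5 and triangles for lane 6. Sbp, Spink3 and Pigr stood out in LFD 5, Ckm and Myh4 in LFD 4, Saa3, Cxcl13 and Marco in placebo 3, and Ucp1 and Cidea were high in LFD 2 and raised in placebo 3 and 4.

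Of 5615 tested genes limma called 2431 at an adjusted p below 0.05, 43.3%, with 1197 (21.3%) higher and 1234 (22%) lower in HFD placebo. Groups did not overlap for 27.6% of tested genes, 14.6% higher and 13% lower. The median log2 fold change over all tested genes was -0.014. Passing the filter takes 1 or more in 5 of the 15 libraries, the estradiol ones included. A low gene high in 1 group alone therefore entered the test by that difference, and counts below describe tested members. Directions are relative to the all-gene median: of the called genes 49.2% were higher with these factors, 99.4% with FPKM as deposited and 91.5% with each library rescaled to a constant sum, where the all-gene median moved to 0.77 and 0.29. The single feature Mir6236 held 33.1% to 53.1% of the FPKM sum in LFD and 10.2% to 47.9% in HFD placebo, and its part in the constant-sum scaling was not tested. The shift as deposited was 0.23 for the lane 5 placebo libraries and 1.59 for the lane 6 ones. Of the genes with the 10 largest changes in each direction, led by Gpnmb and Cyp2e1, those given values below were named through a gene list.

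**Figure D2:**
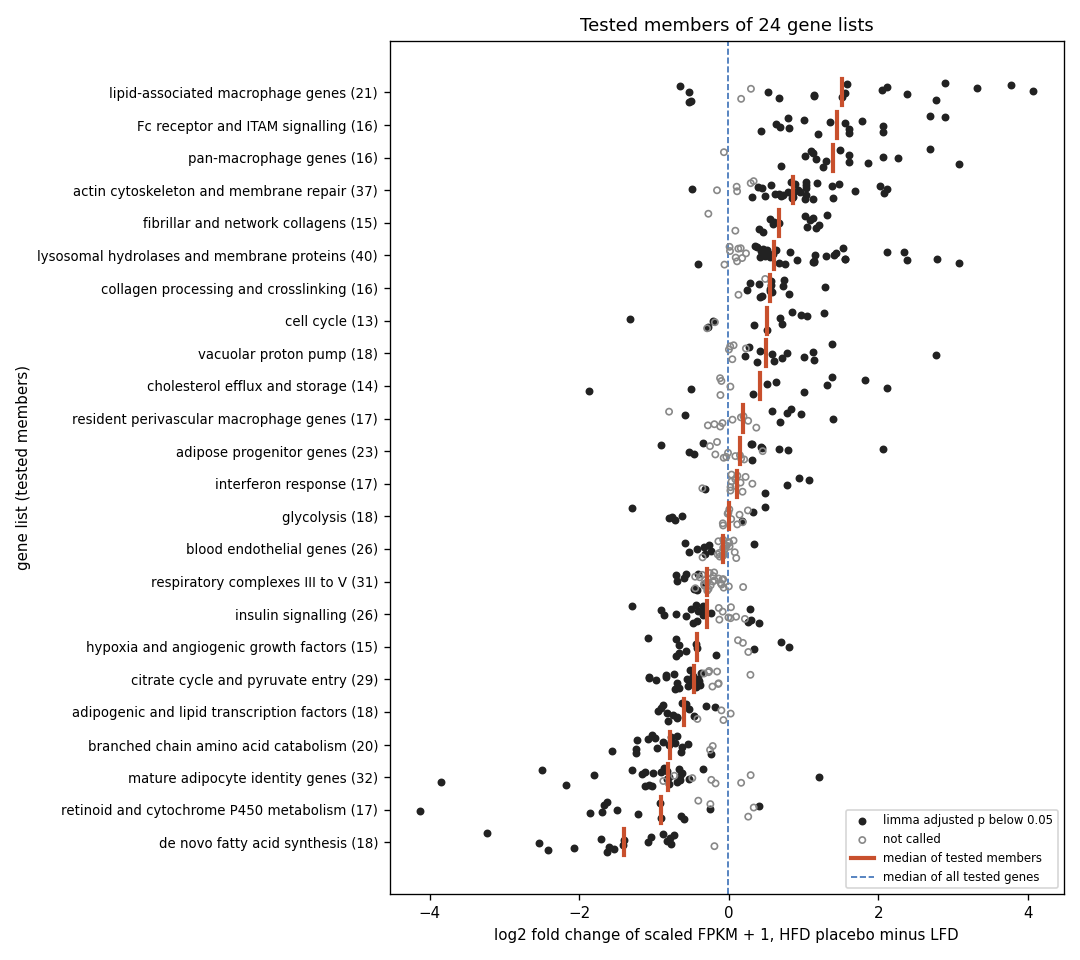
Log2 fold change (HFD placebo minus LFD) of each tested member of 24 gene lists, filled where limma called it, with the list median as a bar and the median of all tested genes as a dashed line. List medians ran from -1.40 for fatty acid synthesis to 1.52 for lipid-associated macrophage genes; with FPKM as deposited every list below the dashed line except fatty acid synthesis had a positive median.

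Macrophage genes beyond the best known markers rose together, in every placebo mouse and from a low base. Of 18 pan-macrophage genes 16 were tested, 15 of these were called, all higher, and the median of the 16 was 1.39 on the log2 scale; without the low-value filter 17 of 18 rose. Of 12 pan-leukocyte genes 10 rose (median 0.99), among them Ptprc (CD45), which marks all white blood cells (log2 fold change 0.98, limma adjusted p = 1.5e-04). The dendritic cell list had 6 tested genes of 18, of which 5 rose (median 0.52), and 10 of 18 rose without the filter. Monocyte genes rose in 3 of 7 tested cases of 16 (median 0.28), in 1 within lane 5, and in 4 of 16 without the filter. In bulk tissue, more cells of a type and more RNA per cell cannot be told apart, nor which cells made a transcript. The integrin Itgax (CD11c), which marks macrophages of obese fat, read 0.164, 0.0687, 0.168, 0.288 and 0.203 in LFD 1 to 5 and 4.45, 4.65, 4.24, 2.11 and 4.34 in placebo 1 to 5. Placebo 4 was the lowest of its group and still stood far above the highest LFD mouse (log2 fold change 2.04, SE 0.19, limma adjusted p = 1.5e-06). Legumain, a lysosomal cysteine protease encoded by Lgmn (GRCm38 chromosome 12, 102394084 to 102439813), read 4.01, 2.27, 4.54, 4.28 and 3.69 in LFD 1 to 5 and 23.2, 28.5, 27.7, 14.9 and 22.1 in placebo 1 to 5 (log2 fold change 2.34, SE 0.19, limma adjusted p = 5.8e-07). The acid lipase gene Lipa, whose product frees cholesterol and fatty acids in lysosomes, read 2.32, 2.77, 2.17, 2.61 and 2.65 in LFD 1 to 5 and 15.1, 18.3, 17.3, 8.79 and 13.5 in placebo 1 to 5. Neither gene's groups overlapped, and Lipa rose by 2.12 (limma adjusted p = 7.8e-07). The cysteine protease Ctsk ran from 0.062 to 0.795 in LFD and 2.35 to 8.36 in HFD placebo (log2 fold change 2.38, limma adjusted p = 2.8e-06), and again placebo 4, at 2.35, was apart from the other placebo mice, at 7.13 to 8.36.

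Other ranked rises and complement genes followed. The disintegrin protease Adam8 rose by 2.41, the actin bundling gene Lcp1 by 2.12, the actin capping gene Capg by 2.08 and the perforin-like Mpeg1 by 2.01 (limma adjusted p from 1.3e-06 to 8.9e-06). The 3 chains of C1q, which start the classical complement cascade, rose by 1.79 to 2.05, and the C3a receptor C3ar1 by 1.98. Of 21 tested complement genes 9 rose and 5 fell. The 5 were Cfd, the adipocyte's complement factor D, C2 (-0.79), the terminal components C6 (-1.16) and C7 (-0.57) and the complement regulator clusterin, Clu (-0.7 on the log2 scale), of which C2, C7 and Clu had positive values as deposited. The call on C7 was lost within lane 5, at -0.63 (limma adjusted p = 0.0510), and without LFD 1 or placebo 1, 3 or 4. Of 15 B cell and plasma cell genes only 5 were tested, and all 5 fell, with a median of -0.76, and -0.035 as deposited. They were Cd79a, Cd79b, Igj, Cd24a and Xbp1, of which Xbp1 is also counted below among unfolded protein genes. Without the filter 8 of 15 fell and 1 rose, with a median of -0.35. Cd79a, the signalling chain of the B cell receptor, read 1.98, 1.28, 1.72, 1.48 and 1.17 in LFD 1 to 5 and 0.133, 0.567, 0.392, 0.273 and 1.02 in placebo 1 to 5 (log2 fold change -0.79, SE 0.16, limma adjusted p = 8.4e-04). All placebo mice were below all LFD mice. Cd79a reached the filter's level of 1 in every LFD mouse but, of the placebo mice, only in placebo 5. Igj, the joining chain of secreted antibodies, was listed from 1.9 to 6.14 in LFD and 0.678 to 2.38 in HFD placebo (log2 fold change -1.15, limma adjusted p = 0.00202), and LFD 3, at 1.9, lay within the placebo range.

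Fc receptors, other receptors with ITAM or ITIM motifs, which switch leukocytes on or off, and their adaptors and kinases rose in every tested case. Of 26 listed genes 16 were tested, all 16 rose, and 13 had groups without overlap; without the filter 23 of 26 rose. Lilrb4, an inhibitory receptor with a near-identical neighbour Gp49a that makes its value uncertain, read 1.37, 1.02, 1.19, 1.25 and 1.02 in LFD 1 to 5 and 8.72, 10.1, 11.5, 4.43 and 7.28 in placebo 1 to 5 (log2 fold change 2.06, limma adjusted p = 3.4e-06). The paired inhibitory receptor Pirb rose by 1.78. Outside the list, the myeloid inhibitory lectin Clec12a rose by 1.98, the CD47 receptor Sirpa by 1.81 and the adhesion receptor Cd84 by 1.86. Innate sensors of nucleic acids rose as well: Tlr8 spanned 0.239 to 0.606 in LFD and 1.91 to 3.79 in HFD placebo (log2 fold change 1.44, limma adjusted p = 1.0e-06), and Tlr13 spanned 0.0169 to 0.219 in LFD and 1.12 to 2.31 in HFD placebo (log2 fold change 1.34, limma adjusted p = 1.3e-06). Casp1, the inflammasome protease, averaged 2.14 ± 0.328 in HFD placebo against 0.734 ± 0.158 in LFD (log2 fold change 0.86, limma adjusted p = 5.7e-06). Of 11 tested pattern recognition genes of 27, 9 rose, and without the filter 19 of 27 rose. In the interferon response list, of 17 tested genes, 4 rose and 1 fell, with a median of 0.12 that was -0.0071 without placebo 4, 0.04 without LFD 2, 0.071 without placebo 3, 0.19 without placebo 1 and 0.26 without LFD 3 (then 2 fell). The 4 were Irf8 (0.94), Irf5 (1.07), Ifitm3 (0.78) and Bst2 (0.48 on the log2 scale). Median positions of that list were above the LFD mean only in placebo 3 and 4, at 0.35 and 0.50, and below it in placebo 1, 2 and 5.

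Resident macrophage genes split. Of 17 tested members of a perivascular resident list 6 rose and 1 fell (median 0.2). The median was 0.07 without placebo 1, 0.099 without LFD 2, 0.13 without placebo 5, 0.3 without LFD 1, 0.3 without placebo 4 and 0.32 without placebo 3. Without placebo 1, 3 genes fell, without LFD 2, 2 fell, and without placebo 3, LFD 3 or LFD 4 none fell, nor within lane 5. Folr2, a folate receptor of resident macrophages, read 3.54, 1.53, 3.79, 3.31 and 3.11 in LFD 1 to 5 and 13, 11.8, 8.52, 5.81 and 9.36 in placebo 1 to 5 (log2 fold change 1.39, SE 0.21, limma adjusted p = 9.1e-05), and Mrc1, the mannose receptor CD206, rose by 0.97 without overlap. The haemoglobin scavenger receptor Cd163 and the hyaluronan receptor Lyve1 did not pass. Cd163 averaged 1.13 ± 0.369 in HFD placebo against 1.57 ± 0.348 in LFD (log2 fold change -0.28, SE 0.12, limma adjusted p = 0.0760), and Lyve1 ran from 0.722 to 1.54 in LFD and 0.863 to 2.82 in HFD placebo (log2 fold change 0.2, limma adjusted p = 0.436). The lectin Mgl2 fell by 0.59 (limma adjusted p = 0.0244; 0.18 as deposited), but the call was lost within lane 5, at -0.65 (limma adjusted p = 0.0829), and without placebo 3, LFD 3 or LFD 4. Placebo 3, high in inflammatory genes, had the lowest Mgl2 (0.366), Cd163 (0.609) and Lyve1 (0.863) of the placebo mice. It had the highest Timd4, another resident marker, at 1.02 against 0.127 to 0.46 in the other placebo mice. Mrc1 (5.5) and Folr2 (5.81) were lowest in placebo 4, as was the list's median position, at -0.24 against -0.078 in placebo 3. Whether the inflammatory genes had a part in these levels was not tested.

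Genes of lipid-associated macrophages, which line dying fat cells, had a median of 1.52. Of 21 tested genes 15 rose and 4 fell. Atp6v0d2, a proton pump subunit of macrophages and osteoclasts, read 0, 0.151, 0.083, 0.0237 and 0.0556 in LFD 1 to 5 and 7.21, 9.3, 6.8, 2.99 and 6.55 in placebo 1 to 5 (log2 fold change 2.77, SE 0.24, limma adjusted p = 7.8e-07). All LFD mice were close to 0 and no placebo mouse was. The 4 that fell were Lpl, Fabp4, Apoe and the acid phosphatase Acp5 (log2 fold change -0.54, limma adjusted p = 0.00505), of which the first 3 are also made by fat cells, and all 4 had positive values as deposited. Of the pan-macrophage list, the adhesion G protein receptor Emr1 (F4/80) ran from 0.745 to 2.33 in LFD and 5.58 to 35.9 in HFD placebo, where placebo 3, at 35.9, stood far above the other placebo mice, at most 9.72.

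Antigen presentation on class II rose in 9 of 10 tested genes of 15, all 9 without overlap, with a median of 1.07. H2-DMb1, which loads peptide onto class II, read 1.19, 0.823, 1.58, 1.38 and 1.13 in LFD 1 to 5 and 4, 5.2, 5.52, 4.48 and 4.76 in placebo 1 to 5 (log2 fold change 1.39, SE 0.11, limma adjusted p = 5.8e-07). Its relatives in the histocompatibility complex are near-identical in parts, so values of single genes there are uncertain. Ctss, the protease that trims the class II invariant chain, rose by 2.78, Ifi30, a lysosomal thiol reductase, rose by 1.74, and the maturation marker Cd83 by 0.88. Class I genes rose in 8 of 15 tested cases (median 0.29), in 5 within lane 5 and 4 with lane as a term, and H2-K1 read 33.5, 31.3, 35.1, 32.1 and 30.0 in LFD 1 to 5 and 35.4, 44.3, 53, 68 and 45.6 in placebo 1 to 5 (log2 fold change 0.56, limma adjusted p = 0.00317). Placebo 4 was highest for H2-K1, and with lane as a term the call was lost (0.42, limma adjusted p = 0.0585).

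Chemokines and cytokine receptors rose in the larger part of the members that could be tested, the latter not with lane accounted for. Of 15 tested chemokine genes 9 rose and 1, Ccl27a, fell (log2 fold change -0.88, limma adjusted p = 1.1e-04); without the filter 15 of 32 rose, and 2 fell within lane 5 and without placebo 4. Ccl9 and Ccl6, constitutive macrophage chemokines of the mouse, were higher in all placebo mice: Ccl9 spanned 1.05 to 1.89 in LFD and 5.25 to 14 in HFD placebo, and Ccl6 spanned 3.11 to 5.14 in LFD and 11.4 to 21.8 in HFD placebo (log2 fold changes 2.13 and 1.91, limma adjusted p = 1.8e-06 and 2.1e-06). Ccl8 was the chemokine in which placebo 4 led, with 4.38, 3.53, 2.52, 9.31 and 5.17 in placebo 1 to 5 and at most 1.03 in LFD (log2 fold change 1.73, limma adjusted p = 8.2e-04). Among 18 tested cytokine and receptor genes of 40, 11 rose and none fell, led by receptor chains such as Csf2ra (log2 fold change 1.15, limma adjusted p = 3.3e-05). Within lane 5 and with lane as a term 8 of the 18 rose and 1 fell, and 1 fell without placebo 4. Without the filter 15 of 37 rose and 1 fell. The cytokines themselves were scarce. Tnf was at or below 0.0606 in LFD and read 0.277, 0.137, 0.903, 0.219 and 0.21 in placebo 1 to 5, Il1b exceeded 0.05 only in placebo 3 (1.09), and Il6 was at 0.0822 or below in all 10 libraries. In the exact two-sided permutation test of 9696 genes below the tested level, 0 (0%) passed, with a smallest adjusted p of 0.0637. With 5 against 5 mice that test cannot give a p below 0.0079, and 2573 genes were at an unadjusted p below 0.05. Limma without the filter called 1039 of the 9696 higher and 837 lower. Il1rn, the receptor antagonist of interleukin 1, read 0, 0.0393, 0, 0.0247 and 0.116 in LFD and 2.33, 2.1, 2.94, 0.883 and 1.3 in HFD placebo, and Il7r ran from 0.058 to 0.17 in LFD and 0.826 to 1.97 in HFD placebo, both without overlap (exact permutation adjusted p = 0.0637 for each). Of 13 neutrophil genes only S100a8 passed the filter, and it rose (log2 fold change 1.49, limma adjusted p = 1.1e-04); without the filter 2 of 8 rose and 1 fell, with a median of 0.0056. T cell genes were scarce: the T cell receptor chain Cd3e was at 0.14 or below in all of the 10 libraries. From the T, NK and innate lymphoid list, with 26 genes found, only Thy1 was tested, and it rose (log2 fold change 0.29). Without the filter 2 of 26 rose and none fell. The summed level of that list was low but without overlap, at 2.87 to 4.48 in LFD and 4.8 to 6.99 in HFD placebo.

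**Figure D3:**
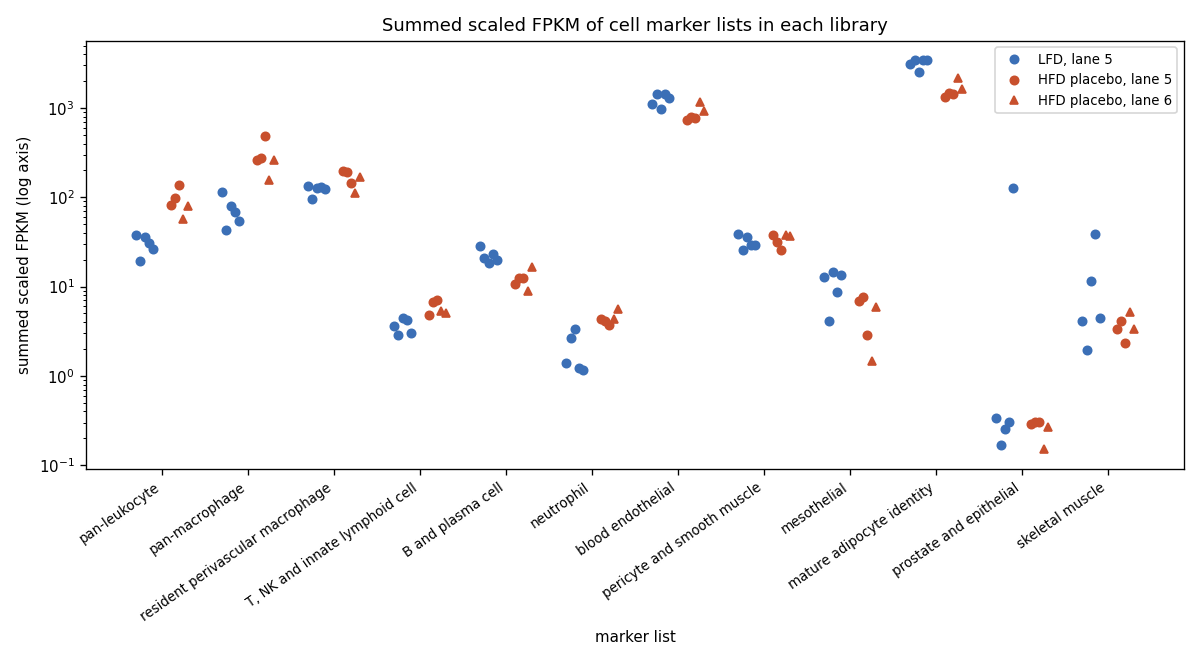
Summed scaled FPKM (log axis) of 12 cell marker lists in each library, blue for LFD and orange for HFD placebo, circles for lane 5 and triangles for lane 6. Pan-macrophage sums were 43.1 to 114 in LFD and 157 to 491 in HFD placebo, adipocyte sums 2516 to 3440 and 1330 to 2156, and LFD 5 alone carried prostate and epithelial genes, at 128.

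Lipid mediator genes moved both ways. Of 12 tested genes of prostaglandin and leukotriene synthesis 5 rose and 3 fell, and without the filter 11 of 28 rose. Hpgds, the haematopoietic prostaglandin D synthase, read 0.404, 0.197, 0.331, 0.319 and 0.249 in LFD 1 to 5 and 1.97, 3.09, 3.01, 1.24 and 2.08 in placebo 1 to 5 (log2 fold change 1.3, SE 0.14, limma adjusted p = 2.8e-06). Thromboxane synthase Tbxas1 rose by 1.18 and the lipoxygenase activating protein Alox5ap by 1.2. The prostaglandin E receptor Ptger3, which restrains lipolysis in fat cells, fell by 0.66 and prostaglandin E synthase Ptges by 0.54, both above 0 as deposited. Purinergic receptors P2ry6 and P2rx4 rose by 1.26 and 1.03, and the calcium pump Atp2b4 fell by 0.9, above 0 as deposited. Of 17 tested sphingolipid genes 8 rose and 1 fell (none without placebo 1, 3 or 5 or LFD 1, 2 or 5, and 2 without LFD 3), led by the lysosomal ceramidase Asah1 (log2 fold change 0.75, limma adjusted p = 1.5e-05).

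Iron and lipid handling genes moved both ways. Hmox1, the heme-degrading oxygenase, read 1.69, 1.06, 1.19, 1.1 and 1.15 in LFD 1 to 5 and 8.26, 6.37, 7.76, 5.64 and 6.64 in placebo 1 to 5 (log2 fold change 1.82, SE 0.15, limma adjusted p = 4.8e-07). LFD 1 stood above the other LFD mice but below every placebo mouse. The phagosomal metal transporter Slc11a1 rose by 1.56 and the ferritin light chain Ftl1 by 1.24, whereas transferrin, Trf, read 115, 100.2, 93.3, 109.5 and 111 in LFD 1 to 5 and 37.5, 45.6, 33.4, 35.4 and 46.2 in placebo 1 to 5 (log2 fold change -1.41, SE 0.11, limma adjusted p = 4.3e-07). Of 13 tested iron and heme genes 7 rose and 3 fell. Of the cholesterol handling list, 8 of 14 tested genes rose and 2 fell. The cholesteryl ester hydrolase Nceh1 (1.32), the esterifying enzyme Soat1 (1.38), the efflux pump Abcg1 (1.01) and the phospholipid transfer protein Pltp (1.82) rose on the log2 scale. Apoc1, a small apolipoprotein, read 42.4, 32.3, 28.4, 31.9 and 45.4 in LFD 1 to 5 and 10.2, 8.32, 6.19, 10.7 and 10.4 in placebo 1 to 5 (log2 fold change -1.87, SE 0.16, limma adjusted p = 7.8e-07). Its neighbour Apoe fell by 0.5 with overlapping groups (limma adjusted p = 0.0134), and stood at 0.64 (limma adjusted p = 0.252) with FPKM as deposited. Plin2, the coat protein of droplets in many lipid-loaded cells, ran from 10.2 to 20.2 in LFD and 41.4 to 49.4 in HFD placebo (log2 fold change 1.59, limma adjusted p = 9.9e-07).

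Lysosomal genes rose in most tested cases. Of 47 genes for hydrolases and membrane proteins 40 were tested, 30 rose and 1, Cd164, fell, with a median of 0.61. Of 18 proton pump genes, all tested, 13 rose and none fell (median 0.5). Transcription of many lysosomal genes is driven by the TFEB family, which binds an E-box with the core CACGTG, in the extended form TCACGTGA. In RefSeq promoters (GRCm38.p6), searched on both strands over 250 bases before the start site, 13 of 38 lysosomal genes with a window held CACGTG (34.2%, against 6.86% of 27025 genes) and 6 held TCACGTGA (15.8%, against 0.907%), which contains the former. Counted by windows, of which a gene may have several, the shares were 30.2% and 14%, against 8.98% and 1.87% of the windows of tested genes. Of 12 proton pump genes with a window, 2 held CACGTG (16.7%) and 1 of these, Atp6v1a, held TCACGTGA (8.33%). The motif is known from lysosomal genes, and these shares use no expression value of this comparison. Whether it had a part in the rises was not tested. The next sequences show the windows of 4 of the hydrolase genes and of Atp6v1a, with the motif in capitals, because their genes rose in this comparison. They run 5′ to 3′ on the coding strand, at most 60 bases to either side of the motif and no farther than the start site or the window's edge.
Ctsa, chr2:164833700-164833772 (+): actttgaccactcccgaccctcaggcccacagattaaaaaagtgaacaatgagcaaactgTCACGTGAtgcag
Ctsd, chr7:142387859-142387986 (-): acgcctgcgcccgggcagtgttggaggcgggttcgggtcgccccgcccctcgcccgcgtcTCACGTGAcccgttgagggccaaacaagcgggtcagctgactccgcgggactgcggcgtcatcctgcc
Atp6v1a, chr16:44139324-44139451 (-): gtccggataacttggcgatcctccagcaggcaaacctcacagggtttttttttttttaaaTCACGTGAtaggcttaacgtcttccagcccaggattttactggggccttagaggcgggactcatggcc
Lgmn, chr12:102439093-102439201 (-): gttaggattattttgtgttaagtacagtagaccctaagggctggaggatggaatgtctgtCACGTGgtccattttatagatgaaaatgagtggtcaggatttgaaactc
Ctsl, chr13:64370691-64370770 (-): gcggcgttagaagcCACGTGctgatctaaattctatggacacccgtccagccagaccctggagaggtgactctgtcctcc

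The genes with these windows differed in how far they rose. The carboxypeptidase Ctsa read 4.23, 2.86, 3.14, 3.23 and 3.52 in LFD 1 to 5 and 9.12, 9.45, 10.8, 5.8 and 8.31 in placebo 1 to 5 (log2 fold change 1.12, limma adjusted p = 9.5e-06), and the aspartic protease Ctsd ran from 48.5 to 59.8 in LFD and 93.2 to 140.0 in HFD placebo (log2 fold change 1.14, limma adjusted p = 2.2e-06). Atp6v1a, a catalytic subunit of the proton pump, had narrow groups at 2.26, 2.36, 2.55, 2.45 and 2.77 in LFD 1 to 5 and 5.1, 4.98, 5.64, 4.04 and 5.08 in placebo 1 to 5 (log2 fold change 0.77, SE 0.073, limma adjusted p = 1.4e-06). Ctsl, a cysteine protease, rose by 1.56. Among pump genes without a shown window, Tcirg1, the a3 subunit of macrophages and osteoclasts, rose by 1.38 and Atp6v0a1 by 1.14. The progranulin gene Grn rose by 1.29, the lysosomal nuclease Pld3 by 1.92 and the cathepsin inhibitor Cstb by 1.83. Cd164 also held TCACGTGA and fell (log2 fold change -0.41, limma adjusted p = 0.00237; 0.66 as deposited), while Psap, the saposin precursor, held neither and rose by 1.52. In the interferon list, of which 4 of 17 tested genes rose, the core of the interferon-stimulated response element was found in 12 of 23 promoters (52.2%, against 3.46% of all genes). Among regulators, Fnip2 rose by 0.74, the factor Mitf by 0.53 and its relative Tfe3 by 0.31, and 7 of 16 tested members of that list rose in all. Matched promoters of fatty acid synthesis genes held CACGTG in 3 of 16 cases (18.8%), the classical sterol regulatory element in 0 of 16, against 0.0814% of all genes, and its looser form TCACNCCAC in 1 of 16 (6.25%, against 1.22%). GAGGAAGT, a form of the site bound by the myeloid factor PU.1, was in 4 of 20 Fc receptor and ITAM genes (20%) and 0 of 11 pan-macrophage genes, against 2.79% of all genes.

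Cytoskeletal, matrix and adhesion genes rose as well, some of them abundant. Of 37 tested genes of the actin cytoskeleton and membrane repair, 31 rose and 1 fell, with a median of 0.86. Tmsb4x, which binds actin monomers, read 40.8, 28, 39.5, 35.5 and 35.2 in LFD 1 to 5 and 100.2, 93.3, 157, 71.8 and 95.7 in placebo 1 to 5 (log2 fold change 1.47, limma adjusted p = 1.0e-05), and Actb, the cytoplasmic actin often used as a reference gene, rose by 1.13 without overlap. Gelsolin, Gsn, which severs actin, fell by 0.5 (limma adjusted p = 0.00389) and stood at 0.65 with FPKM as deposited. Lum, a proteoglycan that spaces collagen fibrils, read 1.32, 0.6, 1.12, 0.958 and 1.43 in LFD 1 to 5 and 9.66, 8.43, 6.93, 4.87 and 9.34 in placebo 1 to 5 (log2 fold change 2.07, SE 0.22, limma adjusted p = 3.4e-06). Of 15 tested collagens 13 rose, among them Col3a1 (log2 fold change 1.2, limma adjusted p = 1.2e-04), and of 16 genes of collagen processing 14 rose, among them the procollagen enhancer Pcolce (log2 fold change 1.29, limma adjusted p = 1.2e-05) and the crosslinking oxidase Lox (log2 fold change 0.8, limma adjusted p = 2.1e-04). The matricellular Thbs1 ran from 0.784 to 1.86 in LFD and 4.27 to 11.4 in HFD placebo and the calcification inhibitor Mgp from 2.98 to 10.8 in LFD and 15.1 to 27.4 in HFD placebo, with log2 fold changes of 1.79 and 1.77. Placebo 3 and 4 were the lower placebo libraries for Thbs1, Mgp and Col6a3, although placebo 3 was high for macrophage genes. Integrins and adhesion genes rose in 13 of 18 tested cases and none fell, with Itgb2, the shared chain of leukocyte integrins, at 1.74, the hyaluronan receptor Cd44 at 1.5 and the syndecan Sdc3 at 1.11. The gelatinase Mmp2 rose by 1.24, and the metalloproteinase inhibitors diverged: Timp1 rose by 1.52, while Timp4, an inhibitor expressed by adipocytes, read 7.82, 5.05, 9.17, 5.17 and 5.39 in LFD 1 to 5 and 1.4, 1.54, 1.03, 2.22 and 1.51 in placebo 1 to 5 (log2 fold change -1.55, SE 0.18, limma adjusted p = 7.5e-06).

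**Figure D4:**
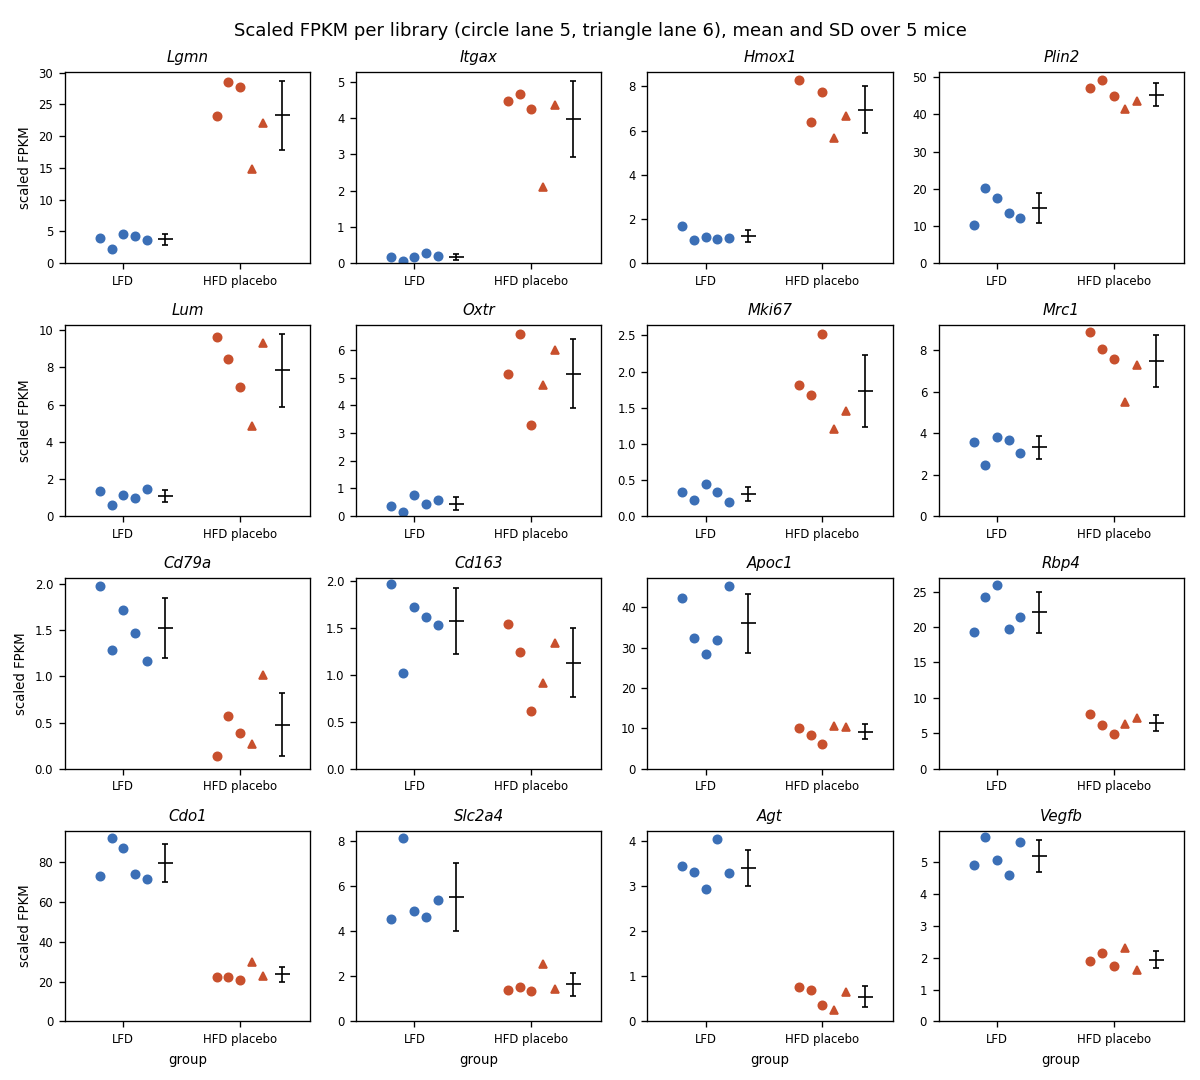
Scaled FPKM of 16 genes in each library, by group, with the mean and SD over 5 mice beside the points, circles for lane 5 and triangles for lane 6. Groups did not overlap except for Cd163, and placebo 4 was the lowest placebo library for Lgmn, Itgax, Lum and Mrc1 and the highest for Cdo1 and Slc2a4; as deposited, the calls on Apoc1, Rbp4, Cdo1, Slc2a4, Vegfb and Cd79a were lost.

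Proliferation genes and those for clearing dead cells rose from low levels. Of 31 cell cycle genes 13 were tested, of which 8 rose and 3 fell, and without the filter 22 rose and 2 fell. Mki67, present in dividing cells, read 0.331, 0.223, 0.448, 0.336 and 0.197 in LFD 1 to 5 and 1.81, 1.68, 2.53, 1.2 and 1.45 in placebo 1 to 5 (log2 fold change 1.05, SE 0.11, limma adjusted p = 2.5e-06). The replication clamp Pcna rose by 0.96 and the tubulin regulator Stmn1 by 1.27. Cdkn2c, an inhibitor of G1 kinases, went the other way at 9.22, 9.58, 10.6, 7.28 and 9.29 in LFD 1 to 5 and 2.29, 3.11, 2.98, 4.3 and 2.77 in placebo 1 to 5 (log2 fold change -1.33, SE 0.14, limma adjusted p = 3.4e-06). Of 15 tested efferocytosis and apoptosis genes of 27, 12 rose and none fell (median 0.57), and without the filter 14 of 27 rose (median 0.18). Mfge8, which bridges dying cells to phagocytes, ran from 5.16 to 7.21 in LFD and 16.2 to 25.9 in HFD placebo (log2 fold change 1.62, limma adjusted p = 4.5e-07). Of 21 tested genes of the unfolded protein and heat shock responses 7 rose and 1 fell. Atf3, an early stress factor, read 0.249, 0.195, 0.393, 0.398 and 0.108 in LFD 1 to 5 and 3.94, 4.19, 4.37, 1.9 and 3.76 in placebo 1 to 5 (log2 fold change 1.84, SE 0.16, limma adjusted p = 8.8e-07). The chaperone Hspa5 rose by 0.57, and Ddit3 (CHOP), which favours cell death under stress, by 0.42. The lone faller was Xbp1, a factor of secretory cells, at 7.48, 7.62, 5.68, 8.59 and 7.16 in LFD 1 to 5 and 5.07, 4.8, 4.57, 4.71 and 5.17 in placebo 1 to 5 (log2 fold change -0.49, limma adjusted p = 2.2e-04). It stood at 0.52 as deposited.

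Other stromal cell types had few calls or calls in both directions. Of 26 tested blood endothelial genes 1 rose and 7 fell (median -0.077, 0.7 as deposited and 0.21 at a constant sum). Without placebo 3 or LFD 4, 4 fell, and without placebo 4 or within lane 5 the median was -0.14 and -0.14. None rose without placebo 4 or LFD 2, 3 or 4, nor within lane 5. The VEGF receptor Kdr read 2.4, 3.48, 2.38, 2.56 and 2.34 in LFD 1 to 5 and 1.18, 1.55, 1.62, 2.56 and 1.66 in placebo 1 to 5 (log2 fold change -0.43, limma adjusted p = 0.00785), and placebo 4 reached LFD levels. As deposited Kdr had a log2 fold change of 0.44. Of 23 tested progenitor genes 8 rose and 4 fell, with Lum highest and Pparg lowest. Of 13 tested pericyte and smooth muscle genes 3 rose, among them Pdgfrb (log2 fold change 0.38, limma adjusted p = 0.00113), and 1 fell (none without placebo 2 or 3 or LFD 1 or 4, and 2 without LFD 5 or within lane 5), and of 5 tested mast cell, basophil and eosinophil genes of 16 none passed, although 1 rose without placebo 4 or LFD 4. Of 3 tested Schwann and nerve genes of 14, 1 rose and 1 fell (median 0.15). Without the filter 2 of 12 rose and 3 fell (median -0.04). The faller among the 3, Scn7a, a sodium channel of nonmyelinating nerve sheath cells, had groups without overlap, spanning 5.21 to 7.11 in LFD and 1.75 to 2.76 in HFD placebo (log2 fold change -1.16, limma adjusted p = 5.8e-07). Upk3b, a mesothelial surface gene, fell by 0.89 (limma adjusted p = 0.0152), not within lane 5 (-0.71, limma adjusted p = 0.0743). In summed level the mesothelial list was 4.1 to 14.5 in LFD and 1.5 to 7.6 in HFD placebo.

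Genes that define the fat cell fell in most tested cases. Among 32 genes of this list, all tested, 24 fell and only Lep rose, and the list had a median of -0.81, and 0.3 as deposited, below the all-gene 0.77. Adipoq, for adiponectin, fell by 1.07 (limma adjusted p = 9.4e-05), Fabp4, the fatty acid carrier, by 0.54 (limma adjusted p = 0.0265) and the lipase Lpl by 0.65 (limma adjusted p = 0.00167), each with a positive value as deposited. The call on Fabp4 was lost without LFD 2, 4 or 5 and without placebo 1, 2 or 3. Cd36, the fatty acid translocase, did not pass, at 88, 96.4, 96.6, 106 and 94.1 in LFD 1 to 5 and 101, 113, 98.9, 121 and 107 in placebo 1 to 5 (log2 fold change 0.17, SE 0.1, limma adjusted p = 0.201). Its groups overlapped narrowly, and it did pass as deposited and at a constant sum. Among genes at high level in LFD, Cdo1, which oxidises cysteine on the way to taurine, read 73, 92.2, 87.2, 74.1 and 71.6 in LFD 1 to 5 and 22.4, 22.3, 20.8, 30.1 and 23.1 in placebo 1 to 5 (log2 fold change -1.71, SE 0.16, limma adjusted p = 1.5e-06). Rbp4, the retinol carrier, read 19.2, 24.2, 25.9, 19.7 and 21.4 in LFD 1 to 5 and 7.78, 6.17, 4.91, 6.36 and 7.11 in placebo 1 to 5 (log2 fold change -1.63, SE 0.13, limma adjusted p = 4.5e-07). Carbonic anhydrase Car3, among the most abundant fat cell transcripts, ran from 851 to 1082 in LFD and 154 to 390.3 in HFD placebo. Car5b, its mitochondrial relative, fell by 1.41, and the medium-chain acyl-CoA synthetase Acsm3 by 1.91. The glutamate transporter Slc1a3 read 7.27, 8.94, 3.46, 9.98 and 6.32 in LFD 1 to 5 and 1.26, 1.14, 1.01, 1.77 and 1.5 in placebo 1 to 5 (log2 fold change -1.75, limma adjusted p = 3.6e-06). The glycogen phosphorylase Pygl fell by 1.51, and Fam13a, a gene linked to fat distribution, ran from 1.95 to 5.49 in LFD and 0.496 to 1.23 in HFD placebo (log2 fold change -1.56, limma adjusted p = 1.6e-04). The salt-inducible kinase gene Sik2 ran from 12.3 to 15.3 in LFD and 3.82 to 6.93 in HFD placebo (log2 fold change -1.38, limma adjusted p = 1.4e-06), with placebo 4 highest of its group at 6.93.

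Secreted adipocyte factors moved in both directions, 9 up and 10 down of 23 tested. Leptin rose (log2 fold change 1.2, limma adjusted p = 2.1e-04) and spanned 16.7 to 34 in LFD and 44.5 to 62.4 in HFD placebo. Sfrp5, a secreted Wnt inhibitor, read 1.56, 0.71, 2.57, 2.49 and 2.13 in LFD 1 to 5 and 5.39, 10.3, 7.79, 6.61 and 6.61 in placebo 1 to 5 (log2 fold change 1.55, limma adjusted p = 1.2e-04). Haptoglobin, Hp, rose by 1.34. The iron-chelating lipocalin Lcn2 rose by 1.09 with overlapping groups, from 0 to 1.12 in LFD and 0.8 to 4.98 in HFD placebo, where placebo 3 was highest. Angiotensinogen, Agt, fell without overlap at 3.45, 3.31, 2.93, 4.04 and 3.3 in LFD 1 to 5 and 0.771, 0.699, 0.363, 0.243 and 0.658 in placebo 1 to 5 (log2 fold change -1.52, SE 0.21, limma adjusted p = 3.9e-05), and Nrg4, a growth factor that fat sends to the liver, fell by 0.87 with placebo 4, at 4.24, inside the LFD range (0.11 as deposited). Saa3 did not pass (log2 fold change 1.52, limma adjusted p = 0.175): placebo 3 was at 106 and LFD 1 at 14.2, against 7.65 or less in the other 8 mice. Oxtr, the oxytocin receptor (GRCm38 chromosome 6, 112473683 to 112489943), was among the ranked rises at 0.37, 0.141, 0.766, 0.416 and 0.562 in LFD 1 to 5 and 5.12, 6.58, 3.3, 4.73 and 5.98 in placebo 1 to 5 (log2 fold change 2.07, SE 0.26, limma adjusted p = 1.2e-05). Placebo 3 was the lowest placebo mouse for it, still above the highest LFD mouse.

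Fatty acid synthesis genes fell in nearly every tested case, and genes of triglyceride assembly and lipolysis fell more often than they rose. Of 18 tested synthesis genes of 20, 17 fell, with a median of -1.4, which stayed negative as deposited (-0.45). Beyond the known falls of Fasn, Acaca and Acly, the acetate activating Acss2 read 9.49, 21.5, 22.5, 5.91 and 11.6 in LFD 1 to 5 and 3.92, 3.01, 2.91, 5.12 and 2.9 in placebo 1 to 5 (log2 fold change -1.61, limma adjusted p = 3.1e-04). LFD 2 and 3 were the highest LFD mice, and no placebo mouse reached the lowest of that group. The acetoacetyl-CoA synthetase Aacs and the carboxylase Acacb fell by 1.63 and 1.54, and LFD 2 was the highest library for both. Elovl6, which elongates palmitate, read 1.57, 11.3, 3.27, 0.971 and 1.68 in LFD 1 to 5 and 0.296, 0.266, 0.409, 0.803 and 0.3 in placebo 1 to 5 (log2 fold change -1.41, limma adjusted p = 0.00424), and within lane 5 it did not pass (-1.49, limma adjusted p = 0.0667). In cholesterol synthesis 4 of 13 tested genes fell (median -0.3, 0.49 as deposited), among them squalene synthase, Fdft1 (log2 fold change -0.73, limma adjusted p = 2.2e-06). Only 1 of the 13 fell within lane 5, with lane as a term, without LFD 2 (median -0.13) or without LFD 3. In triglyceride assembly 8 of 11 tested genes fell (median -0.79, 0.33 as deposited), and without the filter 8 of 15 fell and 2 rose (median -0.45). The acyltransferase Agpat9 (Gpat3) fell by 1.3, the monoacylglycerol acyltransferase Mogat1 ran from 0.927 to 2.37 in LFD and 0 to 0.297 in HFD placebo, and Pck1, the enzyme of glyceroneogenesis, read 54.1, 33.7, 35.5, 61.9 and 88.3 in LFD 1 to 5 and 6.84, 8.67, 17.1, 37.5 and 13.5 in placebo 1 to 5 (log2 fold change -1.8, limma adjusted p = 0.00125), where placebo 4 overlapped LFD. Of 17 lipolysis genes 8 fell and 1 rose, the lipase inhibitor Hilpda (log2 fold change 0.66, limma adjusted p = 2.1e-04), with a median of -0.6 and 0.52 as deposited. Angptl4 (an inhibitor of lipoprotein lipase, log2 fold change 0.93, limma adjusted p = 0.00746) and Cpt1a (the carnitine palmitoyltransferase of fat oxidation, log2 fold change 0.9, limma adjusted p = 3.9e-06) rose as well. Cpt1a read 2.24, 1.28, 2.4, 2.04 and 2.33 in LFD 1 to 5 and 4.88, 5.07, 4.52, 4.25 and 4.65 in placebo 1 to 5, the 1 oxidation gene of 23 tested that rose, where 9 fell (median -0.26, 0.73 as deposited and 0.13 at a constant sum, -0.14 without LFD 2 and -0.17 without placebo 1). The call on Angptl4 was lost within lane 5 (0.84, limma adjusted p = 0.0749).

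Mitochondrial breakdown of branched chain amino acids fell at most steps, while respiratory complexes III to V fell about as often as all tested genes. Of 20 tested genes for breaking down valine, leucine and isoleucine, 18 fell, 16 without overlap, with a median of -0.79 and 0.13 as deposited. Bcat2, the mitochondrial transaminase that opens the pathway, read 6.38, 6.25, 3.7, 5.8 and 7.53 in LFD 1 to 5 and 1.61, 1.36, 2.21, 2.33 and 1.94 in placebo 1 to 5 (log2 fold change -1.25, limma adjusted p = 3.4e-06). Aldh6a1, near its end, fell by 1.56. Gpt2, the mitochondrial alanine transaminase, had groups far apart, from 6.02 to 7.55 in LFD and 1.55 to 2.45 in HFD placebo (log2 fold change -1.36, limma adjusted p = 7.8e-07). Of 29 tested genes of the citrate cycle and pyruvate entry 21 fell (median -0.46, 0.56 as deposited), among them pyruvate carboxylase Pcx and the pyruvate carrier Mpc1, by 1.07 and 0.97 (0.045 and 0.081 as deposited). Complex I genes fell in 13 of 30 cases and those of complexes III to V in 8 of 31, the latter near the 22% of all tested genes that fell. Their medians of -0.33 and -0.29 were 0.66 and 0.76 as deposited and 0.047 and 0.14 at a constant sum. Without LFD 2, 8 complex I genes fell and 5 of complexes III to V (median -0.17), for which the count was also 5 without placebo 1, 2 or 5 and 13 without placebo 4. Ndufb9, a complex I subunit, read 23.1, 38.5, 19.2, 19.5 and 20.4 in LFD 1 to 5 and 10.9, 10.8, 13.4, 18.9 and 14.3 in placebo 1 to 5 (log2 fold change -0.76, limma adjusted p = 0.00335). LFD 2 was high and placebo 4 nearly reached the LFD range, and as deposited Ndufb9 had a log2 fold change of 0.36. Propionate and ketone genes fell in 7 of 10 tested cases (median -0.67, 0.26 as deposited), among them Acss3 and Pccb by 1.08 and 1.02. Of 9 tested genes that supply NADPH 4 fell (median -0.28, 0.68 as deposited), including malic enzyme, Me1 (log2 fold change -1.08, limma adjusted p = 0.00159; 0.016 as deposited). Serine and asparagine synthesis fell at Phgdh and Asns, by 0.67 (0.26 as deposited) and 0.94, while the polyamine acetylating enzyme Sat1 rose by 0.71. Glycolysis genes were mixed, with 3 up and 5 down of 18 tested, 6 up without LFD 2 and 1 up within lane 5.

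**Figure D5:**
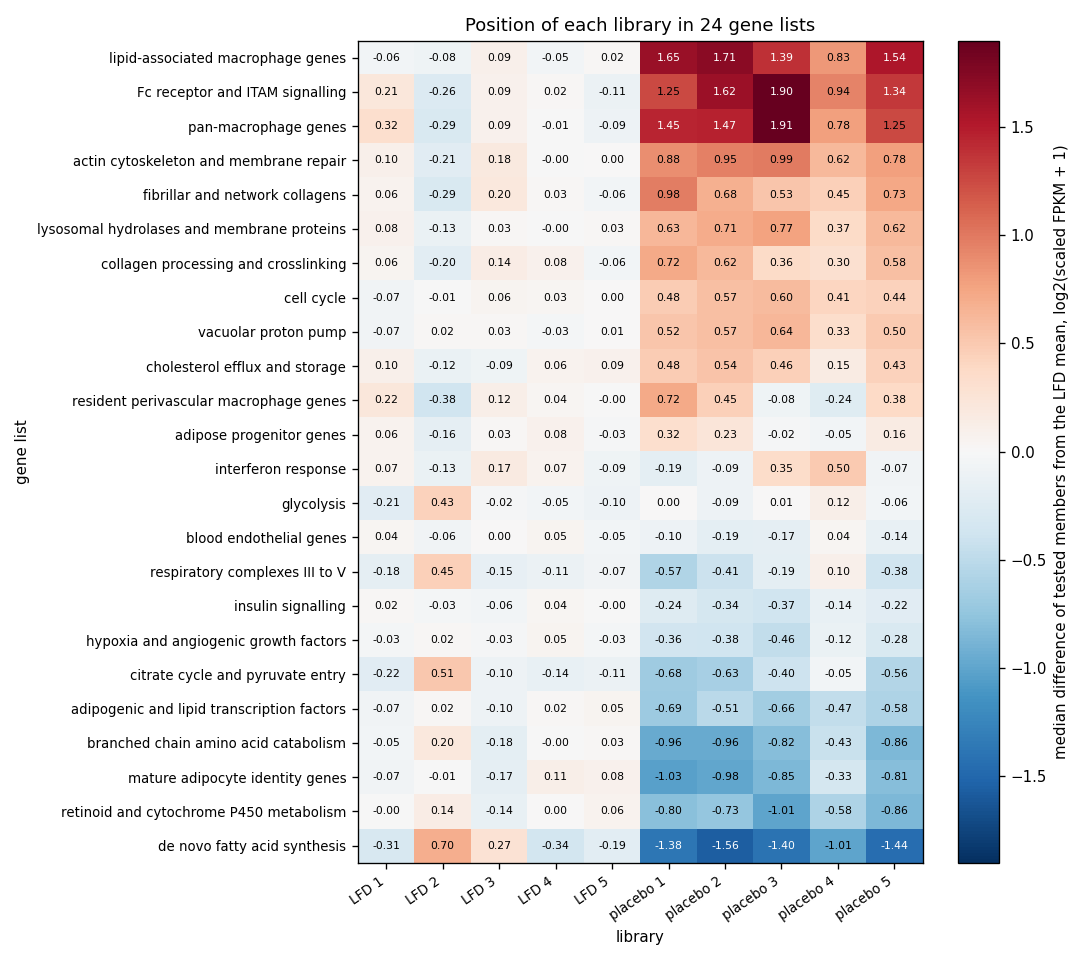
Median difference from the LFD mean, on the log2(scaled FPKM + 1) scale, of the tested members of 24 lists in each of the 10 libraries. Placebo 4 was the placebo library with the smallest difference in most lists, LFD 2 was high for respiration, the citrate cycle and fatty acid synthesis, and the resident macrophage and interferon lists split the placebo mice; signs are relative to the scaling used, and as deposited the lower lists other than fatty acid synthesis had positive medians.

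Over the 55 lists with at least 10 tested members, the list medians of the placebo mice all lay above those of the LFD mice in 22 lists and all below in 12. In 27 of these 34 lists placebo 4 was the placebo mouse nearest to LFD. Placebo 3 was farthest from LFD in 14 and placebo 1 in 11. Placebo 4 and 5 shared lane 6, and placebo 5 was nearest in 2. Class I antigen presentation was an exception in which placebo 4 stood highest, with list medians of 0.10, 0.29, 0.40, 0.59 and 0.15 in placebo 1 to 5.

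Insulin signalling genes and adipogenic transcription factors fell more often than they rose. Of 26 insulin signalling genes 14 fell and 4 rose (median -0.29, 0.59 as deposited and 0.075 at a constant sum), and without the filter 12 of 30 fell and 7 rose (median -0.13). The receptor Insr read 2.37, 3, 2.33, 2.57 and 2.76 in LFD 1 to 5 and 1.42, 1.26, 1.27, 1.63 and 1.56 in placebo 1 to 5 (log2 fold change -0.57, SE 0.066, limma adjusted p = 6.7e-06), the substrate Irs1 fell by 0.86 and the regulatory subunit Pik3r1 by 0.91, while the kinase Akt1 rose by 0.4, each without overlap between groups; as deposited Insr and Pik3r1 had log2 fold changes of 0.27 and 0.12. Slc2a4, the insulin-responsive glucose transporter, ran from 4.56 to 8.13 in LFD and 1.37 to 2.55 in HFD placebo, with LFD 2 and placebo 4 each above the rest of their group. Of 18 tested adipogenic and lipid transcription factors 14 fell and none rose (median -0.59, 0.32 as deposited). Pparg and Cebpa, which drive fat cell differentiation, fell by 0.91 and 0.7, Klf15 by 0.75 and the clock repressor Nr1d1 by 0.94; as deposited Pparg, Cebpa and Nr1d1 had log2 fold changes of 0.18, 0.36 and 0.016. The glucocorticoid receptor Nr3c1 fell by 0.53 and Hsd11b1, which regenerates active glucocorticoid, by 0.94, both above 0 as deposited (limma adjusted p = 3.6e-05 and 2.0e-04). Esr1, for estrogen receptor alpha, lay under the tested level, from 0.522 to 0.936 in LFD and 0.112 to 0.321 in HFD placebo, without overlap (exact permutation adjusted p = 0.0637), and aromatase, Cyp19a1, was listed at 0 in all 10 libraries.

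Of 17 tested retinoid and cytochrome P450 genes 12 fell and 1, the retinal reductase Dhrs3, rose by 0.4 (2 rose without placebo 1 or LFD 2; median -0.91, 0.16 as deposited). Aldh2, the mitochondrial aldehyde dehydrogenase, had the smallest adjusted p after the best-known member Cyp2e1, at 19.8, 22.1, 17.6, 20.2 and 21.3 in LFD 1 to 5 and 7.34, 8.82, 7.05, 9.35 and 8.06 in placebo 1 to 5 (log2 fold change -1.22, SE 0.088, limma adjusted p = 2.9e-07). The flavin monooxygenase Fmo1 fell by 1.67 and the sulfotransferase Sult1a1 by 1.35. Ces1f, a carboxylesterase with close paralogs that make its value uncertain, fell by 1.69. Of 32 tested genes against oxidative stress 16 fell and 6 rose (median -0.3, 0.61 as deposited and 0.057 at a constant sum). Glutathione transferases such as Gsta4 fell (log2 fold change -1.31, limma adjusted p = 5.8e-06), whereas Srxn1 and Txnrd1, among the 6 that rose, did so by 0.54 and 0.41.

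Vascular growth factors fell on the scale used, and genes tied to the growth of fat moved both ways. Of 15 tested hypoxia and angiogenic genes 9 fell and 3 rose (median -0.43, 0.44 as deposited), and without the filter 11 of 31 fell and 6 rose (median -0.0011). Vegfb read 4.9, 5.77, 5.06, 4.59 and 5.62 in LFD 1 to 5 and 1.91, 2.13, 1.75, 2.29 and 1.61 in placebo 1 to 5 (log2 fold change -1.08, SE 0.083, limma adjusted p = 4.3e-07), Vegfa fell by 0.7 and Epas1, for the hypoxia factor HIF-2 alpha, by 0.67, while Hif1a rose by 0.33. As deposited Vegfa and Epas1 had log2 fold changes of 0.28 and 0.35. The imprinted Mest, a marker of fat expansion, read 1.58, 0.268, 7.63, 2.32 and 2.77 in LFD 1 to 5 and 22.2, 21, 16.4, 27.9 and 24.2 in placebo 1 to 5 and rose, whereas the imprinted growth regulator Plagl1 fell by 1.15 without overlap. The growth hormone receptor Ghr fell by 0.83, with 0.3 as deposited, while the receptor Igf2r, which clears insulin-like growth factor 2, rose by 0.75. Acvr1c (ALK7), an activin receptor of fat cells, read 5.76, 6.47, 4.49, 6.21 and 5.75 in LFD 1 to 5 and 1.75, 2.22, 1.75, 2.69 and 2.08 in placebo 1 to 5 (log2 fold change -1.12, SE 0.11, limma adjusted p = 1.8e-06), and the follistatin-like Fstl1 rose by 0.96. Of 10 tested Wnt and Notch modulators 5 fell and 2 rose (median -0.18, 0.52 as deposited), and 3 fell within lane 5. The 2 that rose were the secreted Sfrp4, by 0.72, and Sfrp5 above, and Axin2, a feedback target of Wnt signalling, read 1.95, 2.42, 1.27, 2.16 and 1.24 in LFD 1 to 5 and 0.43, 0.638, 0.441, 0.461 and 0.404 in placebo 1 to 5 (log2 fold change -0.91, SE 0.12, limma adjusted p = 1.9e-05).

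Thermogenic genes were high in single mice of both groups. Of 6 tested brown and beige genes 2 fell and none rose. The beta-3 adrenergic receptor Adrb3, shared by white and brown fat cells, read 9.83, 8.42, 9.18, 10.7 and 11 in LFD 1 to 5 and 0.767, 0.836, 1.54, 2.9 and 1.43 in placebo 1 to 5 (log2 fold change -2.17, SE 0.2, limma adjusted p = 1.0e-06), and the brown lineage factor Ebf2 fell by 0.47, with 0.17 as deposited. Ucp1, the uncoupling protein of thermogenic fat, read 1.71, 34.2, 0.96, 2.47 and 2.28 in LFD 1 to 5 and 0, 0.0687, 13.5, 26.6 and 0.242 in placebo 1 to 5 (log2 fold change -0.4, SE 1.08, limma adjusted p = 0.788). LFD 2, placebo 3 and placebo 4 were high and the other 7 mice low. Cidea, a droplet protein of brown adipocytes, read 1.31, 17.4, 1.42, 2.16 and 2.21 in LFD 1 to 5 and 0.154, 0.202, 2.71, 5.58 and 0.478 in placebo 1 to 5 (log2 fold change -0.88, limma adjusted p = 0.273), with the same 3 mice leading. Those mice were on both diets and on both lanes. LFD 2 also had the highest value of the 5 LFD mice for Elovl6, Tkt, Pdhb and Slc2a4.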

How the data were processed

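Total RNA of peri-prostatic fat with an RNA integrity number above 7, per the labels' protocols, gave rRNA-depleted stranded libraries. The authors deposited FPKM per gene and library; the submitters' processing notes name STAR, Cufflinks and mm10, without versions, and the sources used here do not say whether counting used strand. Genes with antisense or overlapping partners, and near-identical copies (H2, Ces1, Lilrb4, Pirb), are therefore uncertain. FPKM is not a count, so no count test was used. Each library was divided by a median of ratios factor over 5874 genes, taken over all 15 libraries. Genes of at least 1 scaled FPKM in at least 5 libraries (5615 of 23995 listed) went into a limma fit (version 3.58.1, R 4.3.3) of log2(scaled FPKM + 1), with all 15 libraries sharing 1 estimate of the spread and Benjamini-Hochberg adjustment; 9696 lower genes had an exact permutation test over mice. SDs are over n = 5 mice a group. SEs are limma's moderated standard errors of the log2 fold change between groups, with the spread estimated over all 15 libraries and moderated across genes. In simulated data of 5615 genes with 200 changed, limma recovered 79.5% at a log2 change of 0.5 and 98.5% at 1, with 7 and 18 false calls. The simulated noise was normal and independent between genes, with no lane effect and no scaling step. These figures therefore do not measure how reliable the calls in the real data are. Depth was estimated from the steps of low FPKM values and is approximate.

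Members and lists were chosen with earlier results of these data known. The 72 lists hold 1720 entries, of which 1714 were found (8 by synonym), 1550 of them different genes, 986 of these tested. Named genes are called genes ranked 11 to 40 by size in each direction among those at a mean of at least 2 without overlap, the 5 called members of each list with the smallest adjusted p, up to 5 called members against a list's majority, and genes of prior interest. Some genes that this rule names are not reported here. Outside this rule, chosen after their values were seen, are Ccl8, Pirb, Soat1, Mmp2, Mgp, Tmsb4x, Actb, Ctsa, Ctsd, Ctsl, Grn, Lcn2, Nrg4, Mpc1, Klf15, Cebpa, Vegfa, Cidea, Pik3r1, Cxcl13, Sbp, Spink3, Epcam, Pbsn, Ckm, Myh4, Marco, Il1rn, Il7r and Cd3e. Positions are from GENCODE vM21 (GRCm38) and promoters from RefSeq (GRCm38.p6). Alternatives were other scalings, pseudocounts and filters, lane, the replicate block and each library left out. Same-numbered mice of the groups are different animals, and their deviations from the group means correlated by -0.210 to 0.111, so numbers did not pair them.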

Additional observations from a re-analysis of the deposited data

Results flagged for a closer look

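In groups of 5 mice, a value was set apart when its gap to the nearest mouse of its group took more of the group's range than Dixon's 95% critical value allows. Of 388 groups examined, 43 held such a value, and although chance flags about 1 in 20 groups, many of these genes were chosen with their values known, so that rate is no measure for this count. Values are scaled FPKM. LFD 1 stood above its group for Hmox1 (1.69), Soat1 (0.49), Saa3 (14.2) and C7 (6.34). LFD 1 stood below its group for Fdft1 (1.35). LFD 2 stood above its group for Tkt (49.3), Elovl6 (11.3), Pdhb (16.7), Kdr (3.48), Ucp1 (34.2), Cidea (17.4), Slc2a4 (8.13), Aacs (9.93), Acacb (8.43), Ndufb9 (38.5) and Ccl27a (2.46). LFD 2 stood below its group for C1qb (4.78), Clec12a (0.171), Lyve1 (0.722) and Grn (6.18). LFD 3 stood above its group for Cstb (6.97) and Hsd11b1 (8.94). LFD 5 stood above its group for Klf15 (2.11). Placebo 2 stood above its group for Axin2 (0.638). Placebo 3 stood above its group for Clec12a (8.44), Emr1 (35.9), Saa3 (106), Txnrd1 (2.61), Ptges (1.21) and Cxcl13 (9.46). Placebo 3 stood below its group for Cd164 (7.29). Placebo 4 stood above its group for Cdo1 (30.1), Fam13a (1.23), Sik2 (6.93), Aldh6a1 (8.68), Elovl6 (0.803), Slc2a4 (2.55) and Ces1f (3.02). Placebo 4 stood below its group for Ctsk (2.35), Itgax (2.11), Nceh1 (1.22), Atf3 (1.9) and Fnip2 (1.11).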

How the results depend on the processing

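The count of 2431 called genes was 3027 with FPKM as deposited, 2299 at a constant sum, 2047 within lane 5, 2140 with lane as a term, 2217 with only the 10 libraries in the fit, 2439 with a pseudocount of 0.1 and 2154 (without placebo 3) to 2504 (without placebo 4) with 1 library left out. Without the filter on low values it was 4085, with more genes tested. Calls in the same direction were shared for 1215 genes as deposited, 1392 at a constant sum, 1942 within lane 5 and 2119 to 2293 with 1 library left out, and no alternative called any of the 2431 in the other direction. With the replicate block, 2427 genes were called (1201 higher and 1226 lower), and no call on 194 followed genes changed. Of the 187 of these that were called, 108 kept direction and call under every alternative, 180 under every one but the scalings and 184 with each library left out. As deposited, 43 calls among the 194 were lost, 3 gained and 33 further values changed sign: Mgl2 0.18, Apoe 0.64, Gsn 0.65, Nrg4 0.11, Pcx 0.045, Mpc1 0.081, Nr1d1 0.016, Ebf2 0.17, Cebpa 0.36, Pparg 0.18, Vegfa 0.28, Epas1 0.35, Kdr 0.44, Pik3r1 0.12, Insr 0.27, Fabp4 0.61, Lpl 0.49, Adipoq 0.077, Hsd11b1 0.037, Ndufb9 0.36, C2 0.0095, Cd164 0.66, C7 0.30, Clu 0.16, Ptger3 0.33, Ptges 0.10, Xbp1 0.52, Phgdh 0.26, Atp2b4 0.072, Me1 0.016, Ghr 0.30, Nr3c1 0.43 and Acp5 0.53 (log2 fold changes). At a constant sum 26 calls were lost, 1 was gained and Cd164 changed sign, at 0.0073. Apart from scaling, calls were lost for Mgl2, C7, Upk3b and Angptl4 within lane 5 and with lane as a term, for Elovl6 within lane 5, for H2-K1 with lane as a term, for Fabp4 without the filter and for Mgl2, C7 and Fabp4 with single libraries left out. Cd163 passed without placebo 1 (-0.35) or LFD 2 (-0.36). The cause of these changes was not tested. Of 67 list medians, 26 changed sign as deposited, 14 at a constant sum, 4 with either treatment of lane, 3 without the filter and 0 to 6 with 1 library left out. Without the filter, which adds low genes, medians nearer 0 included adipogenic transcription factors (-0.34), lipolysis (-0.18), oxidative stress defence (-0.16) and retinoid metabolism (-0.31). No gene below the tested level passed as deposited (smallest adjusted p 0.0630) or among genes above 0 in all 10 libraries (0.0586), by the exact permutation test.

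Of the 10 libraries compared only placebo 4 and 5 were on lane 6, with the 5 estradiol libraries, so with lane accounted for the comparison rests on placebo 1 to 3. The scaling takes the median gene as unchanged, depth differs between libraries and is estimated, and FPKM gives no counts.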
